A study of Caenorhabditis elegans with 2 samples.

Results

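The late-annotated miRNAs of Caenorhabditis elegans, those whose names carry a number of 1000 or above, were examined in small RNA libraries of worms given enoxacin or its vehicle. The rule of choice used only the names, but it was set with earlier results of these data known. All loci named cel-miR with a number from 1000 upward were taken, except miR-1834, which has no locus in the table, and miR-2209. The choice gave 135 loci from 85 hairpins, out of 375 mature miRNA loci from 223 hairpins. The number in a miRNA's name reflects the order in which it was registered, so high numbers mark miRNAs found late, mostly by deep sequencing. At the lower edge of the choice, miR-1018 had 1 read in the enoxacin and 2 in the vehicle library. The nearest numbered hairpin outside, mir-800, had 1 read in the enoxacin library and none in the vehicle library.

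Both groups were whole worms of the wild-type strain N2, with an age of Day 1. One group had received enoxacin, a fluoroquinolone antibiotic also known to promote miRNA processing in mammalian cells by binding TRBP, a partner of Dicer. The other had received vehicle. Each group had 1 library, and the submitters state that worms were collected in 3 independent experiments, without saying whether these were pooled into a library. The labels used here name neither the dose nor the length of treatment.

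A miRNA is cut from a hairpin in 2 steps. Drosha and its partner Pasha release the hairpin in the nucleus, and Dicer then cuts out a duplex whose arms are named 5p and 3p after the end of the hairpin they come from. Mirtrons skip the first step, because splicing frees a short intron that folds into the hairpin. An intronic miRNA on the strand of its host gene can share that gene's transcript.

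The library totals were 8787665 reads for enoxacin and 10698845 reads for vehicle, of which miRNA loci took 3.78% and 3.74%. The unit of level is RPM, the number of reads per 1000000 reads of the library total. One read was worth 0.114 RPM in the enoxacin library and 0.0935 RPM in the vehicle library. A locus with no read could thus have had up to 0.341 RPM in the enoxacin library and up to 0.280 RPM in the vehicle library (3 counts). With 1 library per group no difference between treatments could be tested. Ratios are of enoxacin over vehicle, with an exact 95% interval in parentheses that reflects the counting of reads and nothing else. A locus entered the comparison with 20 or more reads summed over the libraries. It is called higher or lower in enoxacin where the log2 ratio reached 1.5-fold in that direction and the interval did not contain 1.

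Most late-numbered loci were rare or unread. Of the 135, 36 (26.7%) had a read in the enoxacin library and 40 (29.6%) in the vehicle library, against 60.5% and 62.4% of all 375 loci. Thinned to the enoxacin total, the vehicle library would be expected to show 37.6 of them. In all, 53 loci (39.3%) were read in the one library, the other or both, against 68.5% of the whole table and 79.5% of the 44 loci numbered 300 or more but below 1000. A total of 23 were read in both libraries, 13 in the enoxacin library only, 17 in the vehicle library only and 82 in neither. Of all 375 loci, 204 were read in both, 23 in the enoxacin library only, 30 in the vehicle library only and 118 in neither. Only 13 (9.63%) reached 20 reads, against 40.5% of the whole table.

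The loci read in 1 library alone rested on very few reads. Of the 13 seen in the enoxacin library only, 10 had 1 read. The highest was miR-2210-3p, chosen after its value was seen, with 4 reads in the enoxacin library and none in the vehicle library. The 95% interval of its ratio starts at 0.804 and so contains 1. Of the 17 seen in the vehicle library only, 11 had 1 read, and none had more than 3. At this depth such loci do not separate the libraries.

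**Figure D1:**
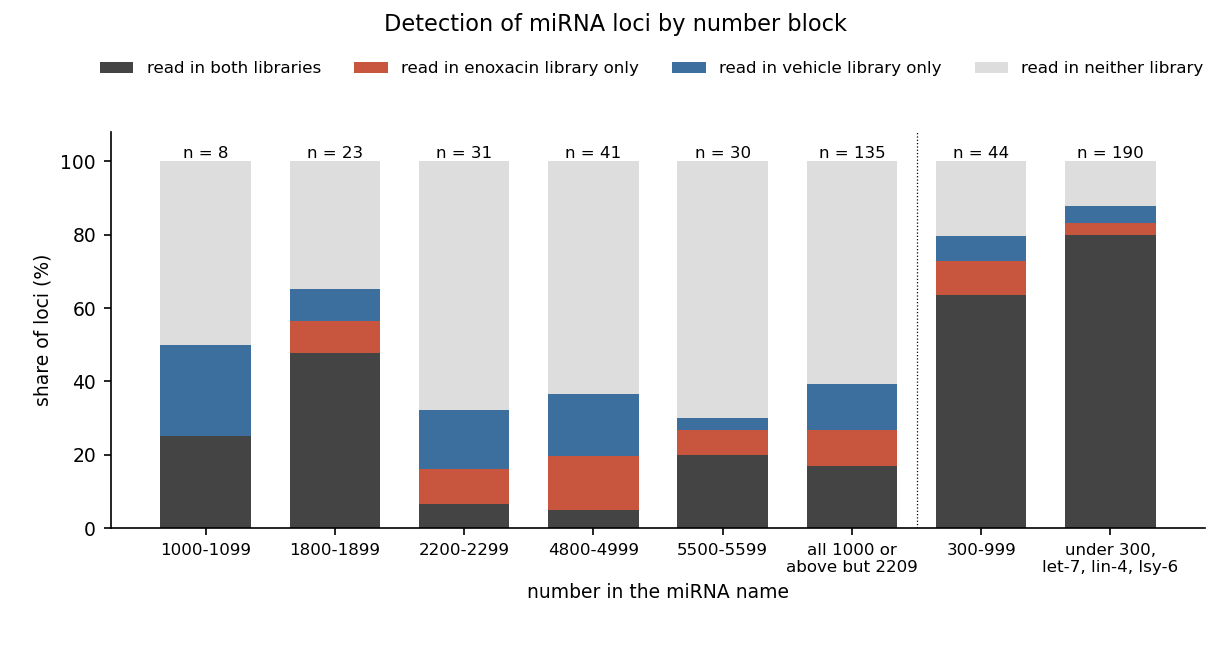
Share of miRNA loci (%, y axis) read in both libraries, in the enoxacin library only, in the vehicle library only or in neither, by the number in the miRNA name (x axis), with the number of loci above each bar. The 135 loci numbered 1000 or above (without miR-2209) were read in either library in 39.3% of cases, and those from 300 to below 1000 in 79.5%; the 2 loci of mir-2953 are counted only in the bar for all 135.

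Detection differed between the blocks of numbers. From mir-1817 to mir-1833, 15 of 23 loci (65.2%) had a read. Elsewhere the counts were 4 of 8 loci from mir-1018 to mir-1022, 10 of 31 from mir-2207 to mir-2221, 15 of 41 from mir-4805 to mir-4938, and 9 of 30 from mir-5545 to mir-5595. Neither arm of mir-2953, the remaining hairpin, had a read. Of the 41 loci from mir-4805 to mir-4938, only miR-4816-3p reached 20 reads.

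Late-numbered loci together took 857 reads (97.5 RPM) in the enoxacin library and 775 reads (72.4 RPM) in the vehicle library. These were 0.258% of miRNA reads in enoxacin (95% exact binomial interval 0.241 to 0.276%) and 0.193% in vehicle (0.180 to 0.208%). The ratio of the sums was 1.35 (1.22 to 1.49). This sum was carried by few hairpins, since mir-5592, mir-2214 and mir-1829 held 77.0% of the reads. Reads of mir-5592 may be counted more than once in this sum, because its loci overlap. On the log2 scale the summed ratio was 0.43 (0.29 to 0.57). With overlapping opposite-strand loci of equal counts counted once, it was 0.39 (0.24 to 0.54). That setting kept both loci of the other overlapping mir-5592 pair, whose counts were not equal. The summed log2 ratio was 0.31 (0.12 to 0.49) without mir-5592, 0.14 (-0.02 to 0.30) without mir-2214 and 0.69 (0.53 to 0.84) without mir-1829. These settings were chosen after seeing the data.

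Of the 13 loci compared, 4 were higher in enoxacin, 2 were lower and 7 were neither. Among all 152 loci compared, 13.2% were higher and 7.89% were lower. The 4 higher loci were both arms of mir-2214 and an overlapping pair of mir-5592 loci that hold the same counts. The 2 lower loci were miR-1829b and miR-1829c. The median ratio of the 13 was 1.30, with extremes of 0.148 and 4.84, and that of all 152 was 1.09. For the 16 compared loci numbered 300 or more but below 1000 the median was 1.29, close to that of the 13. Median-of-ratios and TMM scaling moved every log2 ratio by -0.15 and -0.14, and the same numbers of late-numbered loci were higher and lower under both.

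**Figure D2:**
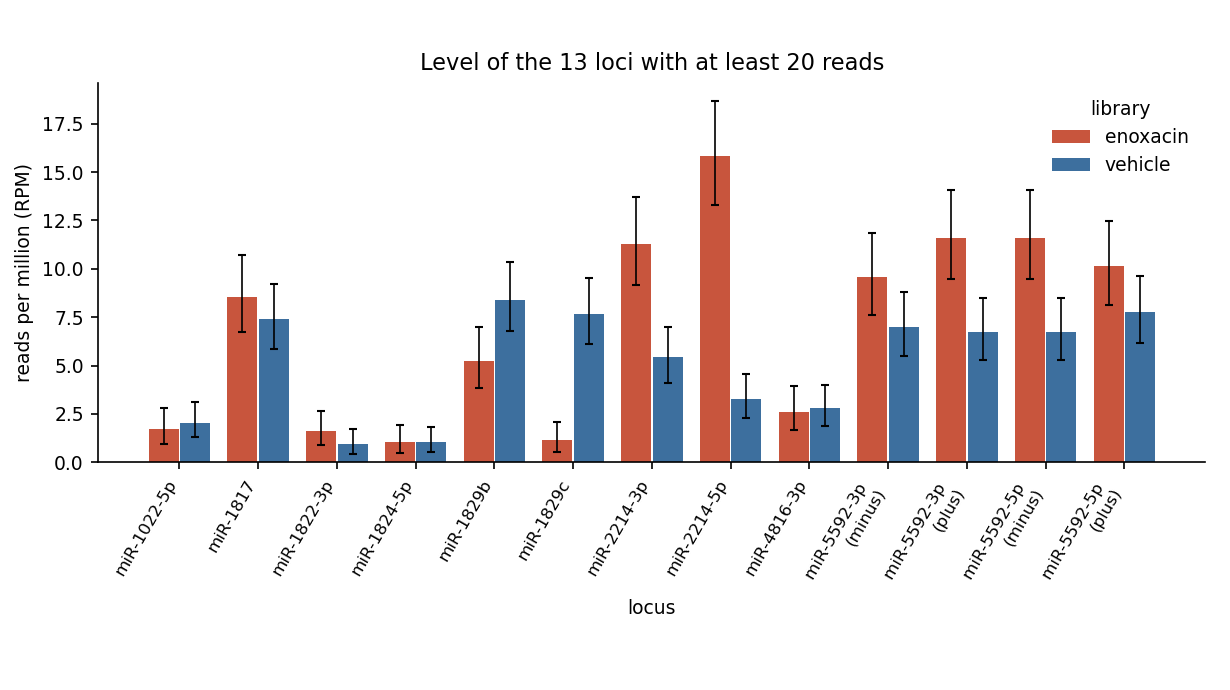
Level in RPM (y axis) of the 13 late-numbered loci with 20 or more reads in all, in the enoxacin library (left bar) and the vehicle library (right bar); error bars are exact 95% Poisson intervals of the read count, and there is 1 library per group. miR-2214-5p had 15.8 RPM in enoxacin and 3.27 RPM in vehicle, and miR-1829c had 1.14 RPM in enoxacin and 7.66 RPM in vehicle.

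mir-2214 gave the highest ratio among the compared late-numbered loci, in both arms. The hairpin lies within an intron of B0361.11, a protein-coding gene, on that gene's strand in the WBcel235 annotation. miR-2214-5p (chromosome III, 7278651 to 7278671, plus strand, ce10, 21 nt) had 139 reads (15.8 RPM) in enoxacin and 35 reads (3.27 RPM) in vehicle, a ratio of 4.84 (3.32 to 7.22). miR-2214-3p (7278690 to 7278714, 25 nt) had 99 reads (11.3 RPM) in enoxacin and 58 reads (5.42 RPM) in vehicle, a ratio of 2.08 (1.49 to 2.93). With both arms summed, mir-2214 had 238 reads in enoxacin and 93 in vehicle, a ratio of 3.12 (2.44 to 4.004).

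The arms of mir-2214 were not higher to the same degree. The 5p arm made up 58.4% of the hairpin's reads in enoxacin (51.9 to 64.7%) and 37.6% in vehicle (27.8 to 48.3%). The odds of a read coming from the 5p arm were 2.32 times as high in the enoxacin library (exact conditional interval 1.38 to 3.94, counting error only). The 5p arm was therefore the more abundant one in enoxacin, and the 3p arm in vehicle.

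By the deposited counts, the mir-5592 hairpins held the most reads of all late-numbered hairpins. The pair lies at one place within an intron of aakb-1, which encodes a beta subunit of AMP-activated protein kinase, with one hairpin on each strand. The 4 mature loci occupy 2 positions inside 66 bp of chromosome X (13759177 to 13759242, ce10). At each position the 5p locus of one strand overlaps the 3p locus of the other by 21 nt. At the right-hand position, miR-5592-5p of the minus strand and miR-5592-3p of the plus strand each had 102 reads (11.6 RPM) in enoxacin and 72 reads (6.73 RPM) in vehicle, a ratio of 1.72 (1.26 to 2.37). The same reads may be counted at both loci, since no source used here says whether counting took strand into account.

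At the left-hand position neither mir-5592 locus passed the criterion. miR-5592-3p of the minus strand had 84 reads in enoxacin and 75 in vehicle, with its ratio at 1.36 (0.987 to 1.89). miR-5592-5p of the plus strand had 89 reads in enoxacin and 83 in vehicle, a ratio of 1.31 (0.957 to 1.78). All 4 loci thus had more reads in the smaller, enoxacin library, but the left-hand loci overlap too and may share reads. Whether the positions differ could not be tested, because the same mature sequences lie at both.

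How the mir-5592 copies are added decides which of them pass. Because copies of 1 mature name are identical in sequence, a read belongs to no one hairpin. Summed over the strands, miR-5592-3p was higher by the criterion, at 1.54 (1.23 to 1.93). miR-5592-5p, at 1.5003 (1.21 to 1.87), fell just short of it with the 0.5 reads that are added to each count on the log2 scale. The only other overlap of opposite-strand loci in the table, miR-356a with miR-356b-3p, also held equal counts at both loci, 4 reads in enoxacin and 5 in vehicle.

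The only late-numbered loci called lower, miR-1829b and miR-1829c, belong to mir-1829. All 3 mir-1829 hairpins lie on chromosome X in introns on the strand of a protein-coding gene. mir-1829c is in piki-1, which encodes a phosphoinositide 3-kinase, mir-1829b is in F20D1.3, and mir-1829a is in gas-1, which encodes a subunit of mitochondrial complex I. miR-1829c (15236332 to 15236354, minus strand, ce10) had 10 reads (1.14 RPM) in enoxacin and 82 reads (7.66 RPM) in vehicle. This is 6.74-fold lower in enoxacin (ratio 0.148, 0.0686 to 0.287). miR-1829b (14977049 to 14977071, plus strand) had 46 reads (5.23 RPM) in enoxacin and 90 reads (8.41 RPM) in vehicle, a ratio of 0.622 (0.426 to 0.897).

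The arms of mir-1829a had too few reads to compare, and neither had fewer reads in enoxacin than in vehicle. miR-1829a-5p had 7 reads in enoxacin and 2 in vehicle, with a ratio of 4.26 (0.811 to 42.0). miR-1829a-3p had 5 reads in each library, a ratio of 1.22 (0.280 to 5.29). miR-1829c and miR-1829b were at near-equal counts in vehicle and apart in enoxacin. miR-1829c made up 17.9% of the reads of these loci in enoxacin (8.91 to 30.4%) and 47.7% in vehicle (40.02 to 55.4%), an odds ratio of 0.240 (0.101 to 0.521). Letter suffixes mark closely related mature sequences, so reads could be divided among the copies by the mapping, and the separate values are uncertain. Summed over its 4 loci, mir-1829 had 68 reads in enoxacin and 179 in vehicle, a ratio of 0.463 (0.345 to 0.615).

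piki-1 holds another late-numbered hairpin in its introns, mir-4812, on the same strand. miR-4812-5p had 3 reads in enoxacin and 5 in vehicle, a ratio of 0.730 (0.113 to 3.75), and miR-4812-3p had none in either library. The interval is too wide to place it with or apart from miR-1829c.

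**Figure D3:**
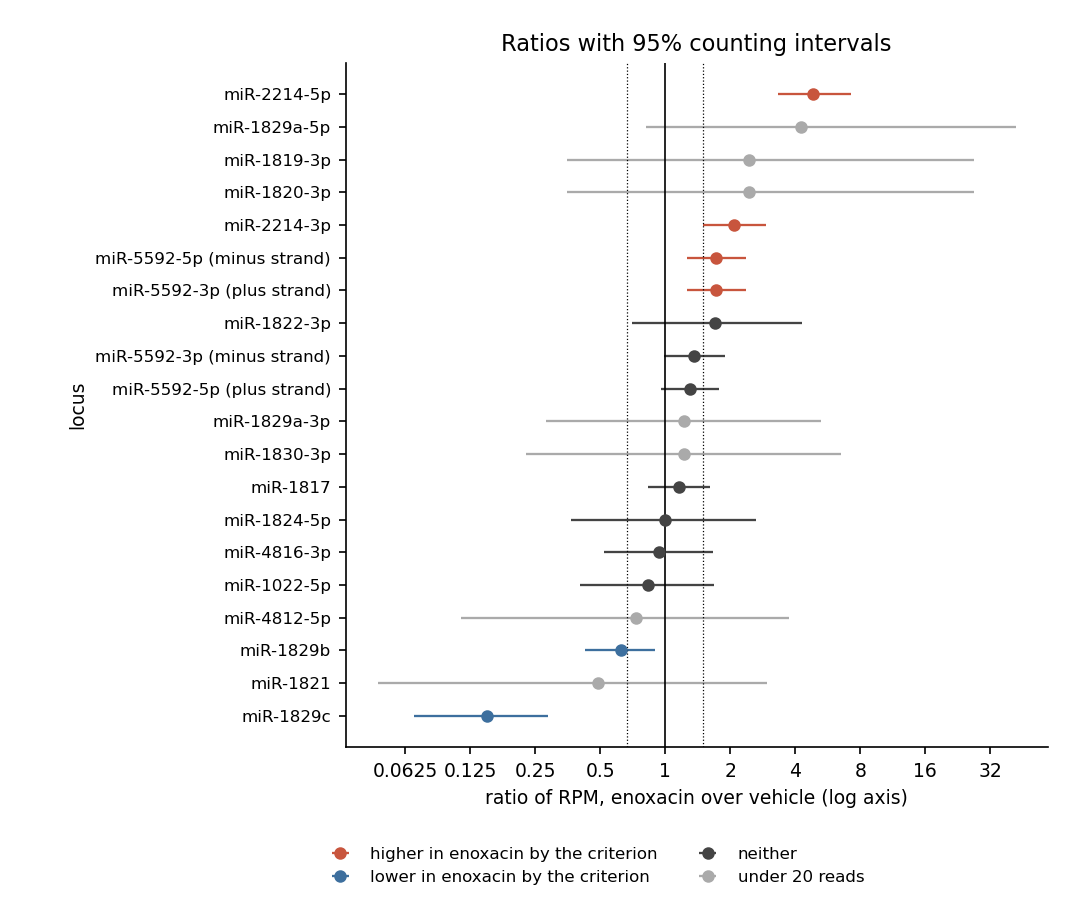
Ratio of RPM, enoxacin over vehicle (x axis, log scale), of the named late-numbered loci with a read in both libraries and more than 3 reads in at least 1 of them; bars are exact 95% intervals of counting error, the solid line marks a ratio of 1 and the dotted lines 1.5-fold either way. miR-2214-5p lies highest at 4.84 and miR-1829c lowest at 0.148, and the bars of loci with fewer than 20 reads all span 1.

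The 5 other compared loci, each from a different hairpin, were neither higher nor lower. The most abundant was miR-1817 (chromosome I, 10869425 to 10869447, minus strand, ce10), in no annotated gene of WBcel235. It had 75 reads (8.53 RPM) in enoxacin and 79 reads (7.38 RPM) in vehicle, a ratio of 1.16 (0.831 to 1.61). miR-4816-3p had 23 reads in enoxacin and 30 in vehicle (0.933, 0.518 to 1.66). miR-1022-5p, also outside annotated genes, had 15 reads in enoxacin and 22 in vehicle (0.830, 0.401 to 1.67).

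The remaining pair of compared loci sat near the minimum. miR-1822-3p, in an intron of ZK84.2, had 14 reads in enoxacin and 10 in vehicle (1.70, 0.704 to 4.29). miR-1824-5p, within an intron of Y87G2A.18 on the opposite strand, had 9 reads in enoxacin and 11 in vehicle (0.996, 0.365 to 2.64). Summed, these 5 loci had 136 reads in enoxacin and 152 in vehicle, a ratio of 1.09 (0.858 to 1.38).

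The mirtrons mir-1018, mir-1019 and mir-1020 were close to the limit of detection. miR-1018 (1 read in enoxacin, 2 in vehicle) was the only one read in both libraries. miR-1019-5p had no read in enoxacin and 2 in vehicle, and miR-1020-5p had no read in enoxacin and 1 in vehicle. miR-1019-3p and miR-1020-3p had no read in either library. The 5 mirtron loci together thus had 1 read in enoxacin and 5 in vehicle, a ratio of 0.243 (0.00515 to 2.18). This wide interval contains 1, so the mirtron counts do not separate the libraries at this depth. mir-1019 lies in an intron of dyf-5, a kinase gene needed for sensory cilia, and mir-1020 in one of T16G12.1.

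mir-1018 is also part of the densest group of late-numbered hairpins. Within 7535 bp of chromosome X (1872498 to 1880032, ce10), 10 hairpins with 13 mature loci lie on the plus strand. They are mir-4807, mir-4808, mir-4809, mir-2220, mir-4810, mir-1018, mir-4925, mir-4923b, mir-4923a and mir-4921. The hairpins matched by name lie within introns of the non-coding RNA gene Y59E1B.1, as annotated in WBcel235. Only 4 of the 13 loci had a read, and the group had 3 reads in enoxacin and 3 in vehicle.

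The other named loci with fewer than 20 reads had intervals that contained 1. miR-1830-3p had 4 reads in each. miR-1819-3p and miR-1820-3p each had 4 reads in enoxacin and 2 in vehicle, a ratio of 2.43 (0.349 to 26.9). miR-1821 had 2 reads in enoxacin and 5 in vehicle, a ratio of 0.487 (0.0464 to 2.97). mir-1828, chosen after its values were seen, lies in an intron of pash-1, the gene for Pasha. It had no read in enoxacin and 2 in vehicle. The 110 late-numbered loci not named by rule had at most 4 reads each, 80 of them had none, and together they had 20 reads in enoxacin and 26 in vehicle.

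**Figure D4:**
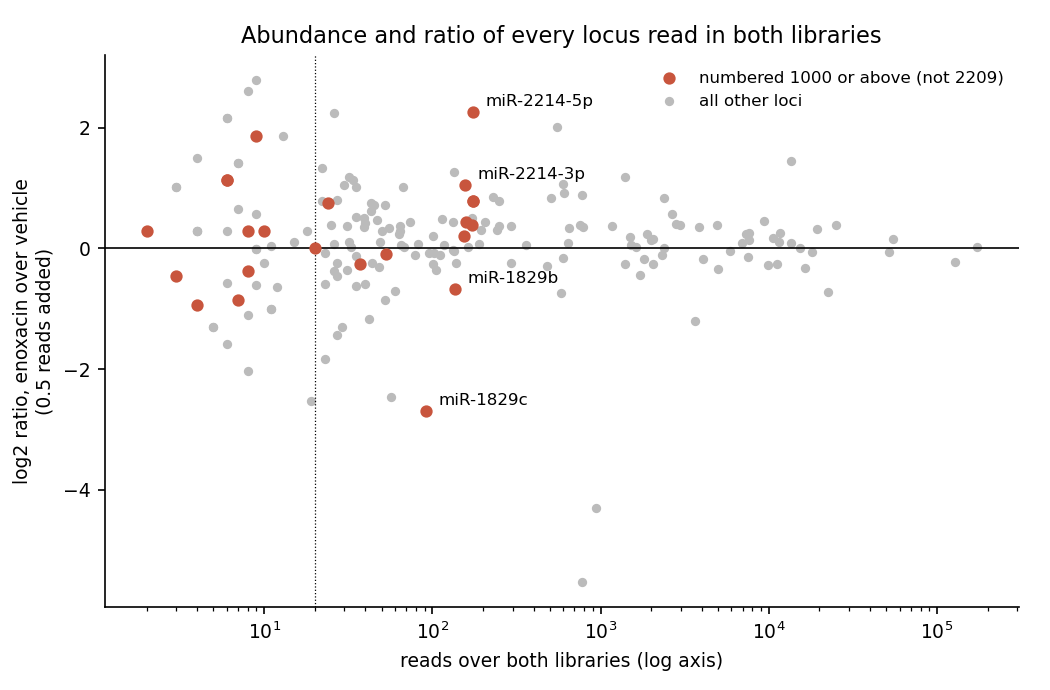
Log2 ratio of enoxacin over vehicle with 0.5 reads added (y axis) against reads over both libraries (x axis, log scale) for the 204 loci read in both libraries, of which 23 are late-numbered (red, some coinciding) and the others grey; the dotted line marks 20 reads. No late-numbered locus exceeds 174 reads, and miR-2214-5p at 2.26 and miR-1829c at -2.69 are the extremes among those compared.

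Position and arm usage were features that the choice by number did not use. Of the 85 hairpins, 82 were matched by name to RefSeq genes of WBcel235. Of these, 28 (34.1%) lay in an intron of a protein-coding gene on its strand, against 25 of 137 (18.2%) matched hairpins of the other loci. A further 9 (10.98%) lay in such an intron on the opposite strand, against 19 (13.9%) of the others. No annotated gene overlapped 30 (36.6%), against 78 (56.9%) of the others. Of the 28 in host introns on the same strand 17 (60.7%) had a read, against 84.0% of the others so placed. Of the 30 outside genes 13 (43.3%) had a read, against 84.6% of the others so placed. These shares are descriptions and were not tested.

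Arms were counted for the late-numbered hairpins only, so their counts have no share over the whole table beside them. Of 50 late-numbered hairpins with both arms listed, 10 had reads from both, 20 from one arm and 20 from none. Both arms reached 20 reads in 3 of them, mir-2214 and the mir-5592 pair. Of the 35 hairpins with a single listed mature miRNA, 13 had a read. Chromosome X held 34 of the 135 loci, against 76 of the 240 other loci of the table. It held 7 of the 13 compared and 60.5% of the reads, most of them from mir-5592 and mir-1829. Loci of 23 nt made up 46 of the 135 and 10 of the 13 compared, against 68 of the 240 other loci. The compared loci on chromosome X and those of 23 nt both include the 4 mir-5592 loci, which may share reads. The shares of chromosome X and of 23 nt among all 152 compared loci are not given here. These shares were not tested either.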

How the data were processed

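Small RNA of whole worms was sequenced with a SOLiD kit, 1 library each for enoxacin and vehicle, per the labels' protocols. The authors deposited 1 table with a raw read count per mature miRNA locus and RPM values, and a ratio of enoxacin over vehicle with its log2, also deposited, which equalled those computed here (within 1e-06) at all 204 loci read in both libraries. Bowtie2, bedtools and build ce10 are named per the submitters' processing notes. Their versions, the filters, and how strand and multiply matching reads were treated are not given in the sources read here. Nor is it given whether cultures were pooled.

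Library totals were recovered as count divided by RPM. The column headed as control was taken as vehicle. Ratios used exact conditional binomial (Clopper-Pearson) intervals at 95%, and log2 ratios a pseudocount of 0.5 reads. The minimum was 20 reads over both libraries and the threshold 1.5-fold. Intervals and the limit of 3 counts cover counting error only, and reads lacking molecular identifiers need not be independent molecules. The interval and the criterion were run on simulated counts that held counting error only, without applying the minimum of 20 reads. That run says nothing about variation between libraries. No p-value was computed. Named loci were those of mir-1829, mir-2214, mir-5592 and mir-1018 to mir-1020, and any other with at least 5 reads over both libraries (25 in all). The choice of loci and lists was made with earlier results of these data known. Host genes came from RefSeq names and the Ensembl annotation of WBcel235, another build, so none of its coordinates is given. Python 3.11.15, numpy 2.4.6, pandas 2.3.3, scipy 1.17.1, R 4.3.3 and edgeR 4.0.16 (TMM factors only) were used.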

Additional observations from a re-analysis of the deposited data

How the results depend on the processing

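No paired analysis was possible because each group had 1 library, and no replicate could be left out for the same reason. Under the 4 other scalings and the pseudocount of 1, each of the 13 compared loci kept its call. All 115 values of the 23 named loci with a read lay within their counting interval or kept their call. Loci under 20 reads could not change call, because these settings leave the reads as they are. The 4 higher loci became 3 with overlapping loci of equal counts counted once, 3 with copies of 1 mature name summed, 2 with arms summed per hairpin, 2 at the 2-fold threshold, 2 without mir-5592 and 2 without mir-2214. The 2 lower loci became 1 at a minimum of 100 reads, 1 at the 2-fold threshold and 0 without mir-1829; in each case fewer loci were compared or the threshold was stricter. The median log2 ratio of the compared loci was 0.38. It was 0.24 with median-of-ratios scaling, 0.21 at a minimum of 1 read, 0.61 at 100 reads, 0.21 with copies of 1 name summed, 0.11 with arms summed, 0.0083 without mir-5592 and 0.21 without mir-2214. The log2 ratio of summed reads, 0.43, was 0.28 with median-of-ratios scaling, 0.31 without mir-5592, 0.14 without mir-2214 and 0.69 without mir-1829. Leaving out mir-5592, mir-2214 or mir-1829 was chosen after seeing the data. With at least 3 reads required, 20 loci were detected in enoxacin and 20 in vehicle, against 36 and 40 with 1 read. Depth limits the 122 loci under 20 reads.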

Other observations

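The 6 mir-2209 loci, which share the number range but were left out, had 1 read in enoxacin and 8 in vehicle, a ratio of 0.152 (0.00343 to 1.14), and 2 of the 6 had a read.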
